A study of Homo sapiens with 12 samples.

Results

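A set of 10 genes of the extracellular matrix were followed across 4 groups of cultured human uveal melanoma cells. The list held the matrix glycoproteins FN1, EMILIN1, FBN1, SPARC, TNC, THBS1 and THBS2, the proteoglycan VCAN, and the crosslinking enzymes LOXL2 and TGM2, which makes 10 of the 18132 genes named on the array. Each gene was read from the probe set annotated to its symbol alone with the highest mean over the 12 arrays, and the other probe sets of the gene, 52 in all for the 10 genes, served as a check.

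The matrix around a cell is built from fibrous glycoproteins that cells grip through integrins, from smaller matricellular proteins that modulate this grip without bearing load, and from enzymes that weld the network together. Fibronectin, fibrillin and EMILIN assemble into fibres and bind growth factors, SPARC, tenascin and the thrombospondins act on adhesion and migration, and versican holds hyaluronan and water. In melanoma several of these proteins mark invasive, less pigmented cells.

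Expression was measured on Affymetrix arrays, a single colour platform with 3′ biased probe sets, in MUM2B and OCM1 cells made to overexpress CANT1 (also CASC15-NT1), which is a long noncoding RNA, and in wild type cells of the same lines. There were 3 arrays in each of the groups MUM2B CANT1, MUM2B wild type, OCM1 CANT1 and OCM1 wild type. The CANT1 cells of replicate 1 were selected with puromycin per the labels, and the labels of replicates 2 and 3 name only medium with serum, so the 4 replicate 1 arrays form one set and the 8 others another. The wild type cells are described without an empty vector. The labels give no age, passage or clone, and they do not say whether replicates came from separate cultures, so p-values measure only the spread between these arrays. No probe set could be tied to the CANT1 transcript, and its overexpression was not checked here.

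Levels are given as log2 of the scaled signal plus 32, on which a signal of 0 lies at 5, so that folds are those of the signal plus 32 and understate the change of dim genes. Differences carry the standard error of the fit after the sign ±. The fit shares its spread for a gene over the 4 groups, so an outlying array in any group widens this error in all of them. The array number limits the precision. The replicate 1 array of wild type OCM1 stood apart: its mean correlation with the other arrays of its line was 0.828, against 0.936 to 0.978 for the other 11 arrays. The log2 gap between the 3′ and 5′ probe sets of ACTB, a sign of RNA or labelling quality, was 2.15 to 2.51 on the replicate 1 arrays and 0.473 to 0.911 on the others. The CANT1 differences of the members are therefore given from all 12 arrays and from replicates 2 and 3, with the replicate 1 difference beside them. TGM2 reached a signal of 100 on 0 of the 6 OCM1 arrays and VCAN on 1, so both passed the filter through MUM2B, and their differences in OCM1 or between the lines are not read as calls. The other 7 members tested were measured in both lines.

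Promoter sequences show the start regions of the 4 members whose difference passed on replicates 2 and 3 of MUM2B. They are the 250 bases before the annotated start, from RefSeq on GRCh38.p14, on the strand of the gene from 5′ to 3′, and the table held 7 of the 10 genes. Capitals mark GC boxes (GGGCGG) and CCAAT boxes (CCAAT) on either strand. No TATAAA and no AP-1 motif (TGANTCA) lay in these 4 windows.
FN1: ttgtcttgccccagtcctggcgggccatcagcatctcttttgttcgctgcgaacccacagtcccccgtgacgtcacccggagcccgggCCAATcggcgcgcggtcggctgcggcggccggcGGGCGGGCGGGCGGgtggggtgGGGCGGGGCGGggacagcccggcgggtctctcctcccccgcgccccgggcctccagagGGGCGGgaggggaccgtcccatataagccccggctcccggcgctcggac
THBS1: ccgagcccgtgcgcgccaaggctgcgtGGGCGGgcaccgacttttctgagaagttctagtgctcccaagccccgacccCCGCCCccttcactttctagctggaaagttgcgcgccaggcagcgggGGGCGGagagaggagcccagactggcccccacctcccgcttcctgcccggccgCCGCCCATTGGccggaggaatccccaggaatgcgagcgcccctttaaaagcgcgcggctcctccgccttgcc
FBN1: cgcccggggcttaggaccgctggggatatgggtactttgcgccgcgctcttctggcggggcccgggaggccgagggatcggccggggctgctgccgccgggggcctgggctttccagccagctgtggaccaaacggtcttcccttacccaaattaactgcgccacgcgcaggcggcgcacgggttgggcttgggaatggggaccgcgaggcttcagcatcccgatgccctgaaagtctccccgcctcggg
VCAN: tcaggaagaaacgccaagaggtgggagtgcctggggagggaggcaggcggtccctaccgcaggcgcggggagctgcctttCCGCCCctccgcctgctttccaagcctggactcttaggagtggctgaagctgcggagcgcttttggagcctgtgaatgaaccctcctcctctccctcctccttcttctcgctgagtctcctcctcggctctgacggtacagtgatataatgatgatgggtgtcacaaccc
The FN1 window (chr2:215436069-215436318, minus strand, 76.4% G and C) held 6 GC boxes, of which 5 overlap a neighbour, and 1 CCAAT box. The THBS1 window (chr15:39580829-39581078, plus strand, 69.6%) held 4 GC boxes and 1 CCAAT box. The VCAN window (chr5:83471494-83471743, plus strand, 60.8%) held 1 GC box. The FBN1 window (chr15:48644971-48645220, minus strand, 69.6%) held none of the motifs searched. Of 35114 promoter windows of the same length, 42.6% held a GC box, 32% a CCAAT box, 10.7% a TATAAA and 6.57% the AP-1 motif, so a match describes the window and says nothing about a factor.

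The first question was what CANT1 overexpression did to these genes in MUM2B. On replicates 2 and 3, FN1, FBN1 and VCAN rose and THBS1 fell. On replicate 1, FBN1 (−0.63) and THBS1 (0.44) had the opposite sign, while FN1 (−0.03) and VCAN (−0.07) were near 0. Over their bright probe sets, replicate 1 gave −0.18 to 0.59 for FN1 and −0.07 to 0.15 for VCAN. The 12-array fit, which holds both sets, called 0 of the 9 members tested, as it called 0% of the 12715 genes (limma, Benjamini-Hochberg at 0.05). At an unadjusted p under 0.05 it called 0 members and 220 genes. In the fit to replicates 2 and 3, 4 of 9 members passed where 25% of 12105 genes did, 3 of them higher (14.4% of genes) and 1 lower (10.7%). The median difference of the 9 members was 0.24 there, against 0.005 over all genes. The members were chosen with earlier results of these data known, so these shares and medians do not test the set. The 3 CANT1 arrays overlapped the 3 wild type arrays for each of the 9 members, while 4.78% of genes separated them (2.82% higher, 1.96% lower). In a bulk sample, fewer cells of a type and less RNA per cell cannot be told apart.

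The same question was asked in OCM1. EMILIN1 rose 3.5-fold in the 12-array fit, the 1 member that passed of the 7 measured in both lines, where 0.118% of genes did (0.102% higher, 0.0157% lower). Among replicates 2 and 3, EMILIN1, FN1 and SPARC rose, 3 of the 7 members measured in both lines, where 23.3% of genes passed (13.7% higher, 9.63% lower). Over the 3 arrays of each group, FN1 and EMILIN1 lay above the wild type arrays without overlap, 2 of these 7 members where 11.5% of genes separated (6.5% higher, 5% lower). The median difference on replicates 2 and 3 was 0.07 over the 9 members tested, TGM2 and VCAN included, against 0.04 over all genes. The limit set by how the members were chosen holds here too.

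**Figure D1:**
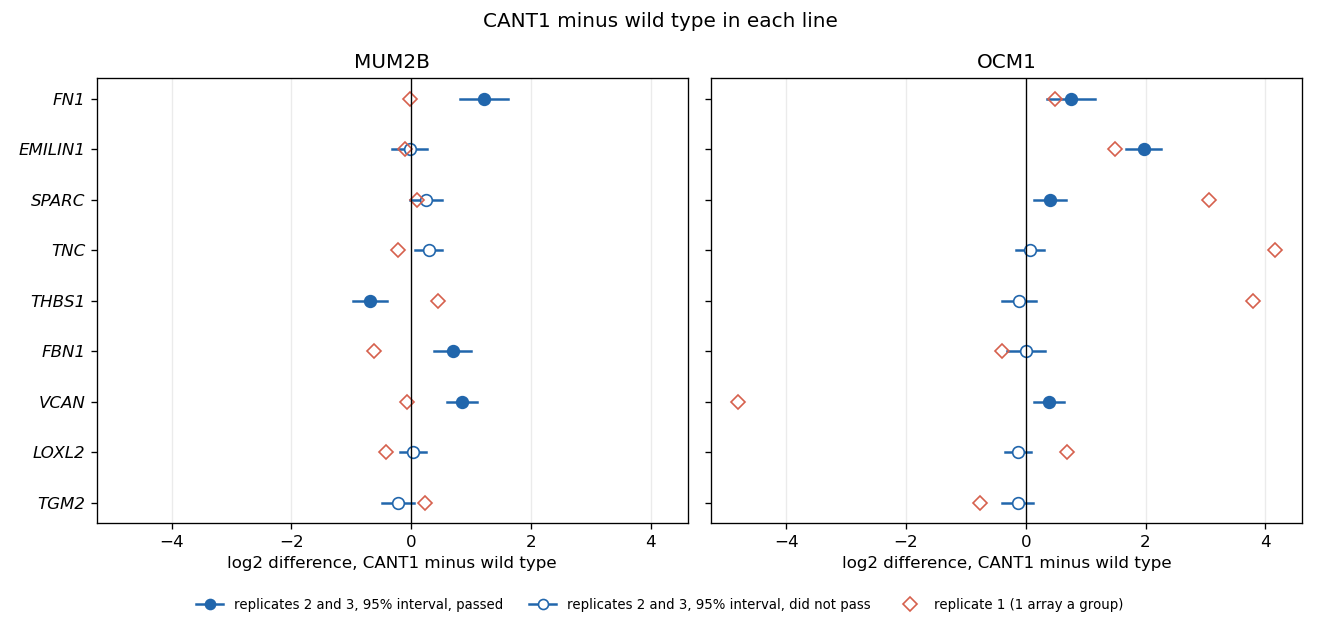
Log2 difference of CANT1 minus wild type cells for the 9 members tested, in MUM2B (left) and OCM1 (right). Circles are the fit to replicates 2 and 3 with 95% intervals, filled where the limma adjusted p passed 0.05, and diamonds are the difference of the single replicate 1 arrays. In OCM1 the SPARC, TNC and THBS1 diamonds lie above 3 and the VCAN diamond at −4.80, far from their circles. The filled VCAN circle in OCM1 compares signals under 100.

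Among the fibre-forming glycoproteins, FN1, which encodes fibronectin, had the largest MUM2B difference of the 9 members on replicates 2 and 3. Its log2 level was 13.61, 13.07 and 12.99 in MUM2B CANT1 arrays (replicates 1, 2 and 3), against 13.64, 11.49 and 12.13 in MUM2B wild type. It was 10.49, 10.78 and 10.93 in OCM1 CANT1 arrays, against 9.99, 10.28 and 9.92 in OCM1 wild type. The MUM2B groups overlap because wild type replicate 1 is as high as the CANT1 array of its set, whereas in OCM1 all 3 CANT1 arrays lie above all 3 wild type arrays. In MUM2B the difference was 1.22 ± 0.18 on replicates 2 and 3 (2.33-fold, limma adjusted p = 0.00132) and −0.03 on replicate 1. In OCM1 it was 0.75 ± 0.18 (1.68-fold, limma adjusted p = 0.0126) and 0.50 on replicate 1. That call was lost without OCM1 wild type replicate 3 (adjusted p = 0.113) and without OCM1 CANT1 replicate 3 (0.0716). The 12-array fit gave 0.80 ± 0.40 in MUM2B (limma adjusted p = 0.9998) and 0.67 ± 0.40 in OCM1 (0.651). By mean level the order was MUM2B CANT1, MUM2B wild type, OCM1 CANT1 and OCM1 wild type, and the first pair did not differ beyond their spread over 3 arrays (13.23 ± 0.34 and 12.42 ± 1.10, SD, n = 3).

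FBN1 encodes fibrillin-1, the backbone of elastic microfibrils. MUM2B CANT1 arrays had log2 levels of 10.08, 10.05 and 10.34, against 10.71, 9.36 and 9.66 in MUM2B wild type. OCM1 arrays had 7.10, 7.06 and 7.27 with CANT1, against 7.50, 7.03 and 7.29 in wild type. The wild type MUM2B array of replicate 1 was the highest of the 12, and the OCM1 groups overlap at a signal near 100. In MUM2B the difference was 0.69 ± 0.14 on replicates 2 and 3 (1.61-fold, limma adjusted p = 0.00582) and −0.63 on replicate 1, an opposite sign. The call was lost without MUM2B wild type replicate 2 (adjusted p = 0.0609) and without MUM2B CANT1 replicate 3 (0.0671). In OCM1 it was 0.0047 ± 0.14, with a 95% interval of −0.31 to 0.32, and −0.40 on replicate 1. The 12-array fit gave 0.25 ± 0.26 in MUM2B and −0.13 ± 0.26 in OCM1, neither of which passed.

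EMILIN1, an elastic fibre glycoprotein, had log2 levels of 8.99, 9.81 and 9.77 in OCM1 CANT1 arrays, against 7.51, 7.65 and 8.0 in OCM1 wild type. In MUM2B it was 7.46, 7.32 and 7.02 with CANT1, against 7.57, 7.26 and 7.14 in wild type. The 3 OCM1 CANT1 arrays stood above the 9 others, and the remaining groups lay close together. The OCM1 difference was 1.81 ± 0.24 over 12 arrays (3.5-fold, limma adjusted p = 0.0306), 1.97 ± 0.13 on replicates 2 and 3 (3.91-fold, adjusted p = 4.08e-06) and 1.48 on replicate 1. The MUM2B difference was −0.05 ± 0.24 over 12 arrays, with a 95% interval of −0.59 to 0.49. The 12-array call in OCM1 was fragile: leaving out any one array among replicates 2 and 3 of any group ended it, with adjusted p from 0.0548 to 0.232, while it held without OCM1 wild type replicate 1 (1.72 ± 0.27, adjusted p = 0.0245). The call on replicates 2 and 3 was kept under each of 14 alternatives. The second EMILIN1 probe set had an OCM1 difference of 1.55 on replicates 2 and 3 and 0.52 on replicate 1, and over 12 arrays it gave 1.20 ± 0.27 and did not pass (adjusted p = 0.187).

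**Figure D2:**
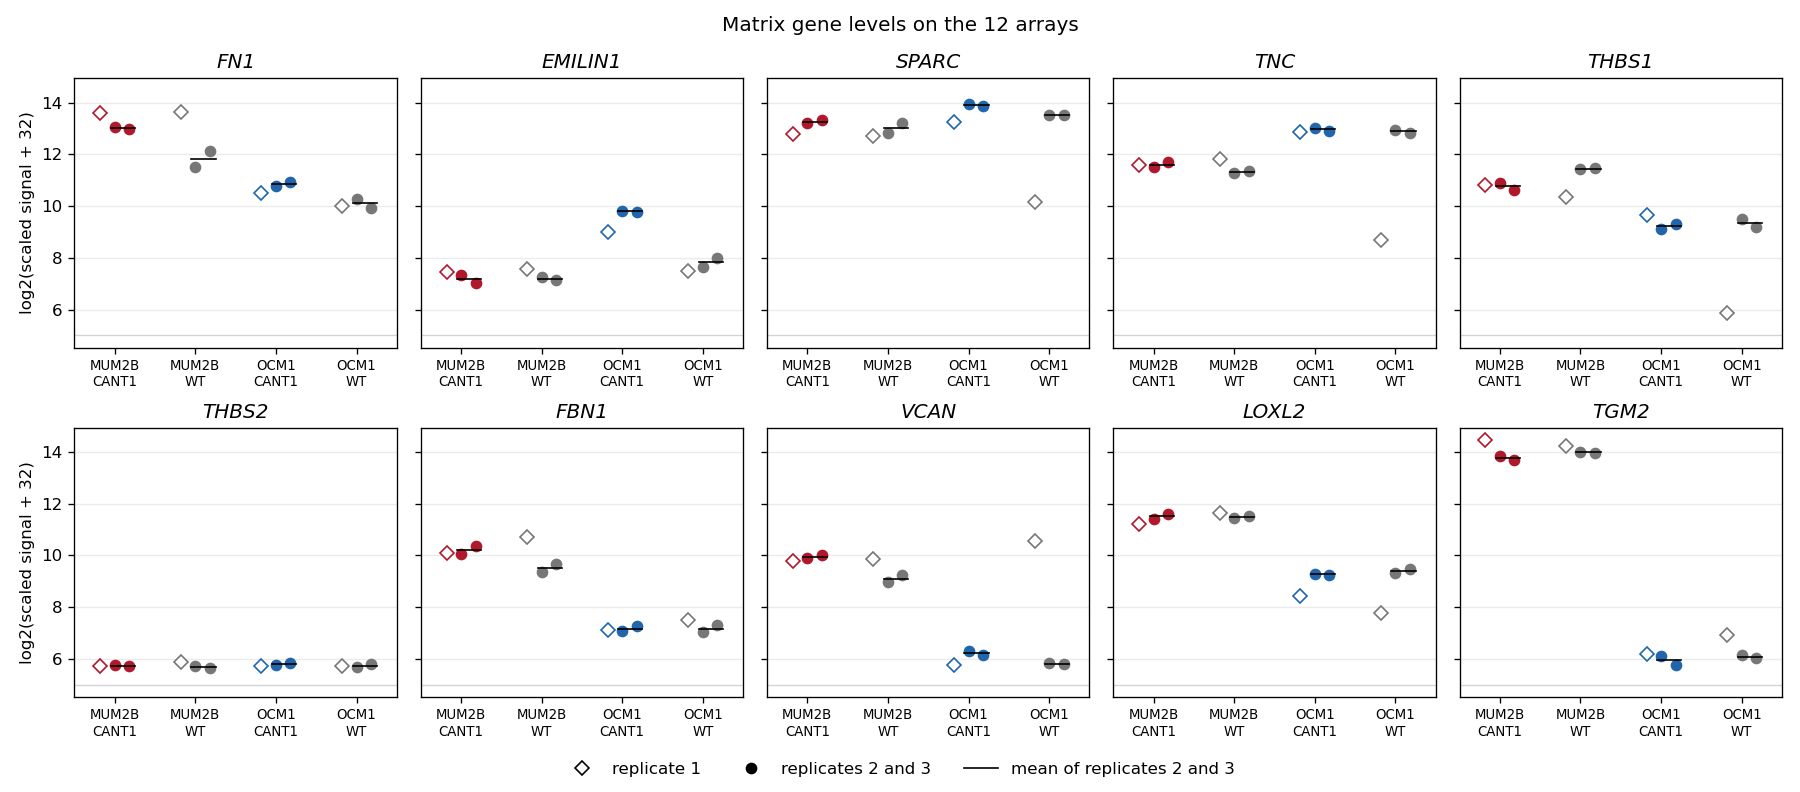
Log2(scaled signal + 32) of the 10 genes on the 12 arrays, 1 panel a gene. Open diamonds are replicate 1, filled circles are replicates 2 and 3, and bars are the mean of replicates 2 and 3; the grey line at 5 is a signal of 0. EMILIN1 is high in OCM1 CANT1 cells, TGM2 is below 7 in OCM1 and above 13 in MUM2B, and the OCM1 wild type diamond stands apart for SPARC, TNC, THBS1 and VCAN.

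Of the matricellular genes, SPARC encodes osteonectin, which binds collagen and tempers adhesion. Log2 levels were 12.79, 13.22 and 13.31 in MUM2B CANT1 arrays, against 12.69, 12.82 and 13.22 in MUM2B wild type. They were 13.23, 13.96 and 13.88 in OCM1 CANT1 arrays, against 10.17, 13.51 and 13.53 in OCM1 wild type. The first wild type OCM1 array, the one that stands apart, lay below every other array, and the CANT1 and wild type groups overlap in both lines. SPARC rose by 0.40 ± 0.12 in OCM1 on replicates 2 and 3 (1.32-fold, limma adjusted p = 0.0351), with 3.06 on replicate 1. This call was lost without any one of the 4 OCM1 arrays of replicates 2 and 3 (adjusted p 0.0816 to 0.171) and under quantile normalization (0.0614) and on the deposited values as they are (0.0999). In MUM2B the difference was 0.24 ± 0.12 (limma adjusted p = 0.172) and 0.10 on replicate 1. Over 12 arrays SPARC gave 0.20 ± 0.55 in MUM2B, and for OCM1 the value was 1.29 ± 0.55 (limma adjusted p = 0.514). Without OCM1 wild type replicate 1 SPARC gave 0.20 ± 0.12 in MUM2B and 0.34 ± 0.14 in OCM1, and neither passed.

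TNC encodes tenascin-C, which is deposited at wound edges and invasive fronts. Its log2 levels were 11.58, 11.50 and 11.71 in MUM2B CANT1 arrays, against 11.80, 11.28 and 11.35 in MUM2B wild type. OCM1 arrays gave 12.87, 13.03 and 12.89 with CANT1, against 8.71, 12.94 and 12.83 in wild type. Beside the first wild type array, the OCM1 arrays lay between 12.83 and 13.03, and CANT1 and wild type overlap in both lines. The replicates 2 and 3 differences were 0.29 ± 0.10 in MUM2B (limma adjusted p = 0.0645) and 0.07 ± 0.10 in OCM1 (adjusted p = 0.66), neither of which passed. Replicate 1 gave −0.22 in MUM2B and 4.16 in OCM1. Over 12 arrays TNC gave 0.12 ± 0.82 in MUM2B, and for OCM1 the value was 1.44 ± 0.82 (limma adjusted p = 0.623). Without OCM1 wild type replicate 1 TNC gave 0.12 ± 0.14 in MUM2B and 0.0010 ± 0.16 in OCM1, and neither passed.

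THBS1 encodes thrombospondin-1, an inhibitor of angiogenesis that binds CD47 and integrins. Log2 levels in MUM2B were 10.81, 10.91 and 10.62 with CANT1, against 10.36, 11.41 and 11.49 in wild type. In OCM1 they were 9.65, 9.13 and 9.31 with CANT1, against 5.86, 9.49 and 9.18 in wild type. The array that stands apart sat near the bottom of the scale for THBS1, with a signal of 26.2. In MUM2B, THBS1 fell on replicates 2 and 3, with a difference of −0.69 ± 0.13 (limma adjusted p = 0.00417), while replicate 1 gave 0.44. The call was lost without MUM2B CANT1 replicate 3 (adjusted p = 0.0504). In OCM1 the difference was −0.11 ± 0.13, with a 95% interval of −0.40 to 0.18, and 3.79 on replicate 1. The 12-array fit gave −0.31 ± 0.67 in MUM2B and 1.19 ± 0.67 in OCM1, and neither passed. Without OCM1 wild type replicate 1 these were −0.31 ± 0.27 and 0.10 ± 0.31, and neither passed. THBS2, the close relative of THBS1, had log2 levels from 5.63 to 5.86 on all 12 arrays, with signals of 17.5 to 25.9, so it was below the filter of 100 on each and was not tested.

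VCAN, the large hyaluronan-binding proteoglycan versican, had log2 levels of 9.77, 9.88 and 10.01 in MUM2B CANT1 arrays, against 9.84, 8.96 and 9.25 in MUM2B wild type. OCM1 CANT1 arrays gave 5.77, 6.29 and 6.13, against 10.57, 5.82 and 5.81 in OCM1 wild type. The first wild type OCM1 array was the highest of the 12 while the 5 others of that line were under a signal of 100. In MUM2B, VCAN rose by 0.85 ± 0.11 on replicates 2 and 3 (1.8-fold, limma adjusted p = 0.000891), with −0.07 on replicate 1, and it gave 0.54 ± 0.91 over 12 arrays. In OCM1 the fitted difference of 0.39 ± 0.11 on replicates 2 and 3 compares signals of 24.0 to 46.1, below the filter, so no rise is read from it, and replicate 1 gave −4.80. Over 12 arrays the OCM1 difference was −1.34 ± 0.91, and without OCM1 wild type replicate 1 it was 0.23 ± 0.25. Without that array the MUM2B difference was 0.54 ± 0.22 and did not pass.

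The crosslinkers did not pass in either line. LOXL2, a lysyl oxidase that crosslinks collagen and elastin, had log2 levels of 11.22, 11.42 and 11.59 in MUM2B CANT1 arrays, against 11.64, 11.44 and 11.52 in MUM2B wild type. It had 8.44, 9.26 and 9.25 in OCM1 CANT1 arrays, against 7.76, 9.33 and 9.45 in OCM1 wild type. Groups of a line overlap in each case. The 95% interval of the replicates 2 and 3 difference was −0.19 to 0.24 in MUM2B and −0.35 to 0.08 in OCM1, around 0.023 and −0.13. Replicate 1 gave −0.42 in MUM2B and 0.68 in OCM1, and the 12-array fit gave −0.12 ± 0.30 and 0.14 ± 0.30.

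TGM2 encodes tissue transglutaminase, which joins glutamine to lysine residues of fibronectin and other matrix proteins. Its log2 levels were 14.46, 13.82 and 13.68 in MUM2B CANT1 arrays, against 14.23, 13.99 and 13.95 in MUM2B wild type. OCM1 CANT1 arrays gave 6.16, 6.11 and 5.76, against 6.94, 6.12 and 6.01 in OCM1 wild type. The lines do not overlap, and no OCM1 array reached a signal of 100, the highest being 90.4. The CANT1 difference on replicates 2 and 3 was −0.22 ± 0.12 in MUM2B (limma adjusted p = 0.205), with 0.23 on replicate 1 and −0.07 ± 0.16 over 12 arrays. In OCM1, below the filter, it was −0.13 ± 0.12, with −0.77 on replicate 1 and −0.35 ± 0.16 over 12 arrays.

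Whether CANT1 acted differently on the lines was tested by the difference of its effects. Over 12 arrays limma called 0 of the 7 members measured in both lines and 0.0472% of genes (0.0393% higher, 0.00786% lower). EMILIN1 alone among the members had an unadjusted p under 0.05, beside 634 of all 12715 genes. The OCM1 effect on EMILIN1 exceeded the MUM2B effect by 1.86 ± 0.34 (limma adjusted p = 0.237). The fit to replicates 2 and 3 called 3 of these 7 where 21.9% of genes passed (11.3% higher, 10.6% lower). EMILIN1 differed by 1.99 ± 0.19 (limma adjusted p = 9.45e-05), with 1.58 on replicate 1. THBS1 differed by 0.58 ± 0.19 (limma adjusted p = 0.0475), with 3.35 on replicate 1. FBN1 differed by −0.69 ± 0.20 (limma adjusted p = 0.0319), with 0.23 on replicate 1. EMILIN1 kept its call in 14 of 14 alternatives, THBS1 lost it in 10 and FBN1 in 6. FN1 had −0.47 ± 0.26 (adjusted p = 0.227), and with the brightest probe set of the kind less prone to cross-hybridization it had −1.33 ± 0.24 (adjusted p = 0.00255).

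The lines were then compared within each CANT1 state. FN1, FBN1 and LOXL2 were lower in OCM1 than in MUM2B in both states, and EMILIN1 was higher in OCM1 among CANT1 cells. TGM2 had signals of 22.3 to 39.7 in OCM1 CANT1 and 32.6 to 90.4 in OCM1 wild type, against 13079 to 22529 over the 6 MUM2B arrays, and no fold or test is read from it because the OCM1 signals were under 100.

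Among CANT1 cells over 12 arrays, 4 of the 7 members measured in both lines passed where 37.2% of genes did (21.2% higher, 16.1% lower). EMILIN1 was higher in OCM1 (2.26 ± 0.24, limma adjusted p = 9.11e-05), and FN1 (−2.49 ± 0.40), FBN1 (−3.02 ± 0.26) and LOXL2 (−2.43 ± 0.30) were lower. Among wild type cells 4 of the 7 were lower in OCM1 where 33% of genes differed (19.1% higher, 13.9% lower), namely FN1 (−2.36 ± 0.40), THBS1 (−2.91 ± 0.67), FBN1 (−2.64 ± 0.26) and LOXL2 (−2.69 ± 0.30). With replicates 2 and 3 alone all 7 passed in CANT1 cells, where 66.3% of genes did (38.2% higher, 28.1% lower), and in wild type cells, where 64.7% did (35.2% higher, 29.5% lower), with EMILIN1, SPARC and TNC higher in OCM1 and FN1, THBS1, FBN1 and LOXL2 lower. The 3 OCM1 arrays did not overlap the 3 MUM2B arrays for 6 of these 7 among CANT1 cells, all but SPARC, where 51.5% of genes separated (29.4% higher, 22.2% lower). Among wild type cells 4 of the 7 separated, each lower in OCM1, where 32.7% of genes did (19% higher, 13.7% lower).

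**Figure D3:**
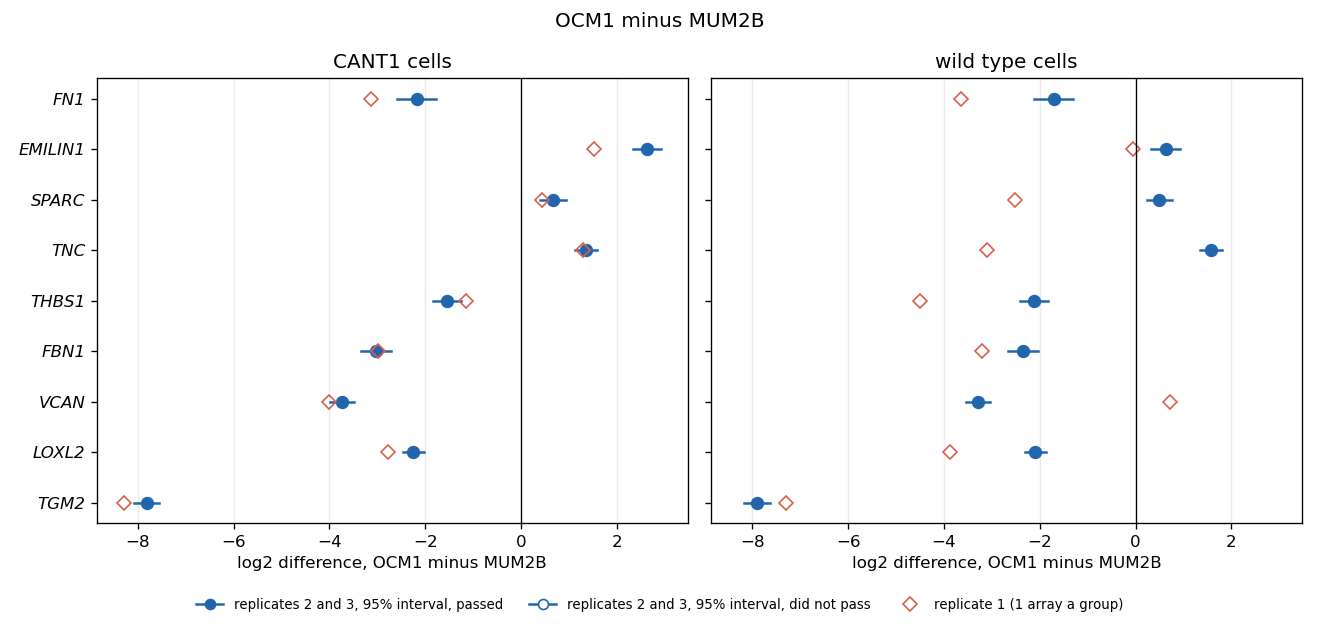
Log2 difference of OCM1 minus MUM2B for the 9 members tested, among CANT1 cells (left) and wild type cells (right). Circles are replicates 2 and 3 with 95% intervals, all filled as all passed, and diamonds are the replicate 1 arrays. TGM2 lies near −8 in both panels, and TGM2 and VCAN circles rest on OCM1 signals under 100. In wild type cells the diamonds of VCAN (0.73), EMILIN1 (−0.06), TNC and SPARC (both below −2) lie on the other side of 0 from their circles.

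The OCM1 wild type replicate 1 array decides several of these values. In wild type cells over 12 arrays, TNC differed by 0.02 ± 0.82 with that array and by 1.45 ± 0.16 without it (limma adjusted p = 6.35e-05). SPARC gave −0.51 ± 0.55 with it and 0.44 ± 0.14 without it (adjusted p = 0.032), and THBS1 −2.91 ± 0.67 and −1.83 ± 0.31. Among CANT1 cells the array acts only through the shared spread. There SPARC (0.59 ± 0.55), TNC (1.33 ± 0.82) and THBS1 (−1.41 ± 0.67) did not pass with it. Without it they gave 0.59 ± 0.12, 1.33 ± 0.14 and −1.41 ± 0.27 and passed (limma adjusted p = 0.00351, 3.59e-05 and 0.00201). For VCAN that array was the only one of OCM1 above a signal of 100, at 1484.

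The summed pigment cell and endothelial markers differed between the lines, while the ranges of the fibroblast, epithelial and immune sums overlapped. Of the pigment cell list, 9 of 10 genes were on the array, and their summed signal was 80409 to 91967 in OCM1 CANT1 and 14749 to 83353 in OCM1 wild type, lowest on the array that stands apart, against 740 to 863 in MUM2B CANT1 and 732 to 1059 in MUM2B wild type. MLANA, TYRP1 and S100B were below a signal of 100 on every MUM2B array, while PMEL, TYR, MITF and SOX10 were at 102 to 197 there. SOX10 was the closest between the lines, at 154 on the OCM1 wild type array that stands apart and 197 on MUM2B wild type replicate 1. Endothelial markers summed to 781 to 933 in OCM1 CANT1 and 719 to 1007 in OCM1 wild type, against 3674 to 5624 in MUM2B CANT1 and 3323 to 4758 in MUM2B wild type. Most of that gap was CDH5, at 46.6 to 87.3 in OCM1 against 2385 to 4634 in MUM2B, while the ranges of VWF, TEK and ERG overlap between the lines. Fibroblast markers summed to 1710 to 1908 in OCM1 CANT1 and 600 to 1908 in OCM1 wild type, against 611 to 852 in MUM2B CANT1 and 595 to 774 in MUM2B wild type. LUM made this gap, at 62.2 to 1437 in OCM1 against 22.4 to 37.4 in MUM2B, and FAP ran the other way, at 33.2 to 124 in OCM1 against 198 to 379 in MUM2B. COL1A1, COL1A2, COL3A1, PDGFRA, DCN and THY1 were below 100 on all 12 arrays. Epithelial markers summed to 881 to 2090 and immune markers to 634 to 1186 over the 12 arrays, with EPCAM, CDH1, GRHL2, PTPRC, LYZ, CD14 and CD3E below 100 on each. Their part in the matrix gene differences was not tested.

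Other probe sets of the same genes mostly gave the same direction on replicates 2 and 3 in MUM2B, less so in OCM1, and sizes differed. In MUM2B, all 8 FN1 probe sets were higher with CANT1, between 1.14 and 2.02, all 7 bright VCAN probe sets were higher, between 0.43 and 0.85, both FBN1 probe sets were higher, and all 4 bright THBS1 probe sets were lower, between −0.69 and −0.21. In OCM1 both EMILIN1 probe sets were higher, but VCAN had 6 higher and 1 lower. VCAN signals there were under 100 on replicates 2 and 3 of the probe set used, so no direction is read. There the 8 FN1 probe sets ran from 0.057 to 0.80 and the 8 SPARC probe sets from 0.0020 to 0.49. TNC had 1 higher in OCM1, the probe set used, and 3 lower. SPARC in MUM2B ran from 0.22 to 0.94, and its difference of effects from −0.94 to 0.26. The fitted TGM2 values between wild type lines on replicates 2 and 3 ran from −7.90 to −3.49 over its 4 probe sets. No fold is read from them, since no OCM1 array reached a signal of 100 on the probe set used. With probe sets prone to cross-hybridization left out, FN1 in MUM2B differed by 1.98 ± 0.17 on replicates 2 and 3 rather than 1.22, and EMILIN1 between wild type lines no longer passed there (0.18, adjusted p = 0.276). The fitted 12-array TGM2 value in wild type cells was then −3.02 rather than −7.70, so it depended on the probe set, and neither is read as a fold.

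**Figure D4:**
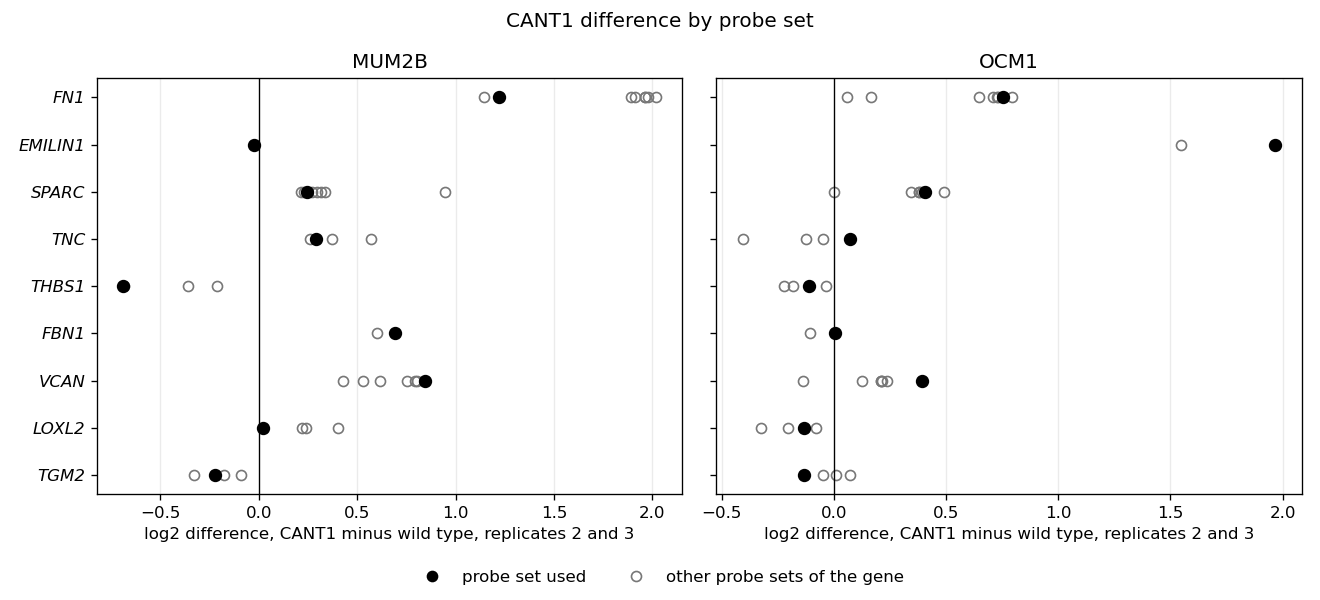
Log2 difference of CANT1 minus wild type on replicates 2 and 3 for every probe set of the 9 members that reached a signal of 100 on at least 3 arrays, in MUM2B (left) and OCM1 (right, on its own axis). The filled circle is the probe set used. FN1 differences run from 1.14 to 2.02 in MUM2B, and the 2 EMILIN1 probe sets lie at 1.55 and 1.97 in OCM1.

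Other matrix genes were read from lists drawn up with earlier results of these data known, and over 12 arrays limma called 0 of them between CANT1 and wild type cells in either line. At an unadjusted p under 0.05 there were 2 of 27 glycoproteins in MUM2B, beside 220 of all 12715 genes. In OCM1 there were 3 of 27 glycoproteins, 2 of 13 proteoglycan partners and 2 of 12 receptors, beside 1177 of all 12715 genes. Of 43 other matrix glycoproteins, 24 were tested on replicates 2 and 3, and 10 were higher and 1 lower with CANT1 in MUM2B, where 14.4% of all genes were higher and 10.7% lower. In OCM1 8 were higher and 1 lower, where the shares over all genes were 13.7% and 9.63%. The list medians were 0.20 in MUM2B and 0.19 in OCM1, beside 0.005 and 0.04 over all genes. In MUM2B, SPOCK1, a testican proteoglycan, rose by 1.51 ± 0.21 with 0.22 on replicate 1, and SPP1, which encodes osteopontin, fell by 1.04 on the log2 scale where replicate 1 gave 1.16. In OCM1, NID1, a basement membrane linker, rose by 2.08 ± 0.14 against wild type levels near the floor (5.61 and 5.66). Replicate 1 gave −6.60 for NID1, with a level of 12.35 on the OCM1 wild type array that stands apart. That array enters every OCM1 replicate 1 difference of these related genes. CCN2, a matricellular growth factor partner, rose by 1.25 ± 0.09 in OCM1 from wild type levels under a signal of 100 (6.65 and 6.68), where replicate 1 gave −0.25. Between wild type lines over 12 arrays, 3 of 27 were higher and 9 lower in OCM1, where 19.1% of all genes were higher and 13.9% lower. This count was not limited to genes measured in both lines, so genes dim in OCM1 can enter it through MUM2B, and no excess is read from it. TGFBI, for example, had log2 levels of 6.66, 6.82 and 6.29 in OCM1 wild type, which are signals under 100. CCN2 was among the genes lower in OCM1, at log2 levels of 8.32, 6.65 and 6.68 in OCM1 wild type against 13.40, 12.91 and 12.84 in MUM2B wild type. Its OCM1 wild type signals on replicates 2 and 3 were under 100.

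Of 11 other crosslinkers, 8 were tested on replicates 2 and 3. In MUM2B 2 were higher, LOXL1 (0.63 ± 0.14, with −0.49 on replicate 1) and the lysyl hydroxylase PLOD2 (0.34 ± 0.10, with −0.48 on replicate 1). In OCM1 PLOD2 rose (0.46 ± 0.10, with 0.36 on replicate 1) and PLOD3 fell by 0.53 on the log2 scale where replicate 1 gave 2.04. On the OCM1 wild type array that stands apart PLOD3 was at 10.49, against 13.29 and 13.43 on wild type replicates 2 and 3. Of 17 hyaluronan and proteoglycan partners, 12 were tested, with 3 higher and 0 lower in MUM2B by limma and 1 higher and 1 lower in OCM1. In MUM2B 5 of these 12 had an unadjusted p under 0.05, beside 4523 of all 12105 genes. The syndecan SDC1 fell by 1.28 in OCM1 with −0.51 on replicate 1, and SDC4 rose by 0.97 with 1.5 on replicate 1. Of 15 receptors, 11 were tested, with 3 higher in MUM2B and 2 higher and 2 lower in OCM1. With 14.4% of all genes higher and 10.7% lower in MUM2B, and 13.7% and 9.63% in OCM1, the counts of 2 or 3 genes in these short lists are to be read beside those shares. The integrin chain ITGB3, a partner for fibronectin and thrombospondin, rose by 1.35 ± 0.20 in MUM2B where replicate 1 gave −0.05, and by 1.12 ± 0.20 in OCM1 where replicate 1 gave 3.49. On the OCM1 wild type array that stands apart ITGB3 was at 6.55, against 11.25 and 11.23 on wild type replicates 2 and 3. ITGA3 rose by 0.93 ± 0.14 in OCM1 with 0.81 on replicate 1, and ITGA4, a fibronectin receptor chain, fell by 0.67 where replicate 1 gave 1.38.

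Correlations between members, after the mean of each set was taken off, describe 12 arrays that share 2 lines and 2 sets, and carry no test. FBN1 and TGM2 had a Pearson r of 0.976, LOXL2 and FBN1 0.966, and SPARC and TNC 0.941. EMILIN1 had negative r with VCAN (−0.741) and TGM2 (−0.714). In OCM1, TGM2 reached a signal of 100 on 0 arrays and VCAN on 1, so values with either rest on signals below the filter there. SPARC and VCAN were at −0.566 with the array that stands apart and −0.641 without it, while SPARC and THBS1 were at 0.520 with it and −0.204 without it.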

How the data were processed

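The arrays carry 49395 probe sets. The deposited values are taken as log2 expression values; MAS5 is named in the submitters' processing notes, its version, the log base and the normalization are not given in the sources used here, and raw intensity files were not analysed here. The values were turned back to signals, each array was scaled to a trimmed mean of 500 (2% off each end), and log2 of the signal plus 32 was taken. Of the probe sets, 44988 had 1 gene symbol, 1832 several, 2473 none and 102 were controls; 44961 matched a current symbol, for 18132 genes. A gene was tested when its signal reached 100 on at least 3 arrays.

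The linear models of limma 3.58.1 (R 4.3.3, with eBayes moderation) were fitted to 12 arrays with 4 group terms and a set term (12715 genes, 7 residual degrees of freedom), and to replicates 2 and 3 alone (8 arrays, 12105 genes, 4 residual degrees of freedom), with Benjamini-Hochberg adjustment at 0.05 over all genes tested and 5 contrasts. The median standard error of a difference within a line was 0.183 and 0.107. The script was tested on simulated data. Named genes were the 10 members, of each related list those that passed over 12 arrays and up to 4 with the smallest p on replicates 2 and 3, and 2 genes most like each member. The members and lists were chosen with earlier results of these data known. Alternatives were quantile normalization, the deposited values as they are, an offset of 8, no filter, a signal of 200 on at least 6 arrays, no set term, a replicate block, other probe sets, and leaving out each array. Same-numbered arrays of replicates 2 and 3 did not pair: between groups, correlations of the replicate 2 minus replicate 3 differences ran from −0.125 to 0.217. Replicate 1 was not part of that check.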

Additional observations from a re-analysis of the deposited data

Results flagged for a closer look

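For 3 members the CANT1 effect on replicates 2 and 3 differed between the lines by the test of the difference itself. The OCM1 effect minus the MUM2B effect was 1.99 for EMILIN1 (95% interval 1.58 to 2.41), where replicate 1 gave 1.58. It was 0.58 for THBS1 (0.17 to 0.99), where replicate 1 gave 3.35 with the OCM1 wild type array that stands apart. It was −0.69 for FBN1 (−1.13 to −0.24), where replicate 1 gave 0.23. Over 12 arrays none of the 3 passed, with limma adjusted p of 0.237 for EMILIN1 and 0.956 for THBS1 and FBN1. On replicates 2 and 3, EMILIN1 kept its call in 14 of 14 alternatives, THBS1 lost it in 10 and FBN1 in 6. In the line without a call the gene was dim for EMILIN1 (MUM2B signals of 97.7 to 128) and FBN1 (OCM1 signals of 98.7 to 124). The scale used understates changes of dim genes, and its part in these 2 line differences was not tested.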

How the results depend on the processing

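Directions and calls were recomputed under each alternative. Over 12 arrays, 874 member differences kept their sign and call, 34 changed sign, 22 gained a call and 10 lost it. On replicates 2 and 3 these counts were 576, 15, 7 and 32. The causes were not tested, and counts of members include TGM2 and VCAN. On replicates 2 and 3 alone, 3032 genes and 4 members passed in MUM2B (LOXL2 0.023), 2822 genes and 4 members in OCM1, VCAN among them at signals under 100 (THBS1 −0.11, FBN1 0.0047, VCAN 0.39, LOXL2 −0.13), 2650 genes and 3 members for the difference of effects (TNC −0.22, LOXL2 −0.16, TGM2 0.087), 7829 genes and 9 members between wild type lines (SPARC 0.50) and 8025 genes between CANT1 lines. Over 12 arrays the OCM1 count of 15 genes became 24 with no filter, 6 with the strict filter, 6 with no set term and 8 without _x_at and _s_at probe sets, and 0 members passed under the strict filter, which does not test EMILIN1, and without those probe sets (EMILIN1 1.20, adjusted p = 0.187). The difference of effects had 3 genes with the strict filter and with no set term. TNC between wild type lines was −0.036 on the deposited values and −0.0035 with an offset of 8. Within the fit to replicates 2 and 3, FBN1 in OCM1 was −0.0555 under quantile normalization and −0.0475 on the deposited values, TGM2 in OCM1 was 0.0715 without _x_at and _s_at probe sets, the difference of effects passed for 1 member on the deposited values, 1 with an offset of 8 and 5 without those probe sets, and its TGM2 value was −0.11 on the deposited values and −0.0039 with the offset.

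With a replicate block over 12 arrays, 7 genes and 0 members passed in OCM1 (EMILIN1 limma adjusted p = 0.0944) and 3 genes for the difference of effects. Same-numbered arrays of replicates 2 and 3 share only a number, and there the block left the member counts at 4, 4, 3, 9 and 9.

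Leaving out each array in turn over 12 arrays gave, in MUM2B, 0 to 9 genes, EMILIN1 −0.23 to 0.16, SPARC −0.13 to 0.59, TNC −0.29 to 0.76, LOXL2 −0.29 to 0.23 and TGM2 −0.19 to 0.0017. In OCM1 it gave 5 to 139 genes, the most without OCM1 wild type replicate 1, 0 to 1 member, FBN1 −0.26 to 0.049, VCAN −1.97 to 0.23 and LOXL2 −0.30 to 0.35. For the difference of effects it gave 0 to 35 genes, 0 to 1 member, FN1 −0.74 to 0.27, TNC −0.12 to 1.92 and LOXL2 −0.18 to 0.47. Between wild type lines it gave 5 to 8 members, SPARC −0.90 to 0.44 and TNC −0.59 to 1.45. On replicates 2 and 3 it gave, in MUM2B, 1013 to 3066 genes, 2 to 5 members, EMILIN1 −0.18 to 0.13 and LOXL2 −0.063 to 0.11. In OCM1 it gave 1333 to 2943 genes, 1 to 4 members, THBS1 −0.27 to 0.043, FBN1 −0.12 to 0.13 and TGM2 −0.31 to 0.037. For the difference of effects it gave 1711 to 2706 genes, 1 to 4 members, SPARC −0.038 to 0.36 and TGM2 −0.085 to 0.26. A lone array left in a group is assumed to vary like the other groups. Signals under 100, as of TGM2 and VCAN in OCM1, limit what the folds can show.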

Other observations

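Over the 12 arrays, after the mean of each set was taken off, the genes with the highest Pearson r to each member were as follows, as a description without a test, over arrays that share 2 lines. FN1 was most like VEZF1 (0.985) and NAV3 (0.982), and EMILIN1 was most like the histone genes H2AC6 (0.990) and H2AC8 (0.979). SPARC was most like CTSZ (0.977) and PARP12 (0.972), TNC like DTX3L (0.993) and SHC1 (0.989), and THBS1 like REXO2 (0.987) and RAB34 (0.986). FBN1 was most like HDAC9 and IL31RA (0.997 each), and LOXL2 like NT5E (0.996) and GSDME (0.991). VCAN was most like GATA2 (0.994) and G2E3 (0.993), and TGM2 like BNC1 and OCIAD2 (0.999 each). For VCAN and TGM2 the OCM1 signals were mostly under 100.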
